A study of Mus musculus with 16 samples.

Results

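Across 9 chromatin immunoprecipitation sequencing (ChIP-seq) lists from mouse neural progenitor cells, 1702 stretches of the genome were listed in 6 or more of the 9, out of 552722 stretches listed in any. They were found by merging the listed 50 bp windows of each library where they lay up to 200 bp apart, and joining regions of different libraries that shared at least 1 bp. A repeated array on chromosome 17 was left out by rule, which removed 2 stretches. The stretches were chosen by their listing in these libraries, so the number of libraries at each is a description and is not tested. Of the 1702, 1192 were in 6 libraries, 431 in 7, 71 in 8 and 8 in all 9, and 2348 stretches just missed the limit with 5. Without Cbx3 set 1, 626 stretches were in 6 or more of the other 8 libraries. Leaving out any widely listed library lowers a count that still asks for 6. Only the Cbx3 sets were left out in turn, so this does not single out set 1.

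The cells were derived from V6.5 mouse embryonic stem cells through embryoid bodies kept for 4 days, and were crosslinked with 1% formaldehyde. Med26, Cdk8 and RNA polymerase II (Pol II) were each mapped in cells given an siRNA against Cbx3 for 72 hours and in cells given a control siRNA against luciferase, with 1 library per antibody and arm. Untreated cells gave 2 Cbx3 libraries (sets 1 and 2) and 1 Pol II library. Differences between arms therefore rest on single libraries, without replicates or p-values. The lists held 2721 (Med26, Cbx3 siRNA) to 923942 windows (Cbx3 set 1), and they hold only windows above a minimum, so a library that does not list a stretch can have signal there below that minimum. Total read depth is unknown from such lists, and the intervals given for shares are 95% Wilson intervals that cover counting error only.

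Pol II transcribes the protein-coding genes and gathers near their start sites. Mediator is the large complex that links transcription factors to Pol II; Med26 is a subunit of the form that recruits elongation factors, and Cdk8 is the kinase of a module that docks reversibly on Mediator. Cbx3, or HP1 gamma, is a heterochromatin protein that binds methylated histone H3 and is also found in the bodies of active genes.

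The 8 stretches listed by all 9 libraries are few, and 3 of them were placed at genes by the known mm9 positions of the gene starts, since no mm9 annotation was used here; these and all later gene names were not checked against one. They are chr9:44688451-44690450 at Kmt2a, which encodes a histone H3 lysine 4 methyltransferase, chr11:79805901-79807200 at Suz12, a core subunit of Polycomb repressive complex 2, and chr3:97817151-97817750 at Notch2, a receptor of the Notch pathway that keeps neural progenitors undifferentiated. The start regions of these 3 genes are shown because only these 3 of the 8 stretches were placed at a gene. All 8 listed all 4 proteins, and that listing is of the stretches, not of the bases printed below. The start regions come from RefSeq in another build, GRCm38.p6, found by gene symbol, and their coordinates are not comparable with those of the stretches. Each runs 5′ to 3′ from 250 bases before to 50 bases after the annotated start, and capitals mark, on either strand, the GC box core GGGCGG, the CCAAT box, the TATA box letters TATAAA and the E-box letters CACGTG.
Kmt2a (chr9:44881240-44881539, minus strand): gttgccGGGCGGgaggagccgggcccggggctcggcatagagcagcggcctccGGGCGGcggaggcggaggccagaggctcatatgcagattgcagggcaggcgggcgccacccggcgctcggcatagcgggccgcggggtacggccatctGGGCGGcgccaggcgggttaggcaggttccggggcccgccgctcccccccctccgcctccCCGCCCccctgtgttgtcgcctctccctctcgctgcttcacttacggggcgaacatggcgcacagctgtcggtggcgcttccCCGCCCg
Suz12 (chr11:79992856-79993155, plus strand): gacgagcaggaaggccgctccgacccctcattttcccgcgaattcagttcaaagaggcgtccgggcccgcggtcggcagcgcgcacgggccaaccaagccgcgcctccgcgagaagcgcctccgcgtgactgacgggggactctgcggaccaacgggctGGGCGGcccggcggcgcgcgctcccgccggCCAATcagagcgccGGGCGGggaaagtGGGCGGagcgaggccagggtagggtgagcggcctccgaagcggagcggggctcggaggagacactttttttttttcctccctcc
Notch2 (chr3:98013288-98013587, plus strand): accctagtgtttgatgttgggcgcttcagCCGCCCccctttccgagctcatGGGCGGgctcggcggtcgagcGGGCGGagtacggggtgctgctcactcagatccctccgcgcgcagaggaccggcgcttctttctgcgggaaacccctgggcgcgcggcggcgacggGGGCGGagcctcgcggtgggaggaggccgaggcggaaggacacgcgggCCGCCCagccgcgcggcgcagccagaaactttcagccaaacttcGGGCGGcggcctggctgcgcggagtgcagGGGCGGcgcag

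All 3 windows were rich in CpG. Kmt2a held 36 CpG and 75.7% G and C, Suz12 41 and 71%, and Notch2 41 and 73%, against a median of 7 CpG (quartiles 3 to 20) and 52.7% over 32851 promoters of the same length. GGGCGG occurred 5 times at Kmt2a, 3 times at Suz12 and 7 times at Notch2, and is held by 35.7% of all these promoters. CCAAT occurred once, at Suz12 (37.4% of all promoters hold it), and TATAAA (13.6%) and CACGTG (7.15%) occurred in none of these 3 windows. A match describes the letters and does not show that a factor is bound there.

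The Kmt2a stretch had the highest Med26 signal of all 1702 in both arms, and it was the stretch at which Med26 and Cdk8 differed most plainly in opposite directions. Signal here is the highest 50 bp window of a stretch, in the authors' units. Med26 was 59.0 after Cbx3 siRNA and 122.7 after control siRNA (log2 difference, Cbx3 siRNA minus control siRNA, -1.06), over 350 and 700 listed bp. Cdk8 was 30.5 after Cbx3 siRNA and 11.2 after control siRNA (log2 difference 1.44), the largest Cdk8 rise among the 312 stretches with Cdk8 listed in both arms. Pol II was 33.3 after Cbx3 siRNA, 40.7 after control siRNA and 19.8 in untreated cells, where the Cbx3 sets read 71.4 and 23.5. The untreated libraries have other units, so their values stand beside the others and are not compared with them. Of the 38 stretches with Med26 and Cdk8 listed in both arms, Kmt2a was the 1 at which Med26 was lower and Cdk8 higher by 2-fold or more.

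Suz12 and Notch2 gave Med26 differences in the same direction with smaller Cdk8 differences. At Suz12, Med26 was 9.09 after Cbx3 siRNA and 17.3 after control siRNA, Cdk8 12.7 after Cbx3 siRNA and 11.8 after control siRNA, and Pol II 27.0 after Cbx3 siRNA and 28.1 after control siRNA. At Notch2, Med26 was 9.39 after Cbx3 siRNA and 14.3 after control siRNA, Cdk8 12.2 after Cbx3 siRNA and 8.15 after control siRNA, and Pol II 36.9 after Cbx3 siRNA and 44.0 after control siRNA. All 8 stretches had less Pol II after Cbx3 siRNA, by 0.06 (Suz12) to 0.96 (chr7:31373451-31374800) on the log2 scale. At that chromosome 7 stretch Pol II was 26.0 after Cbx3 siRNA and 50.8 after control siRNA while Cdk8 was 19.0 after Cbx3 siRNA and 19.6 after control siRNA. The exception for Med26 was chr19:55390251-55391250, with 15.7 after Cbx3 siRNA and 13.5 after control siRNA (log2 difference 0.22), where Cdk8 was 21.3 after Cbx3 siRNA and 30.5 after control siRNA. The remaining 3 stretches, chr3:90035351-90036100, chr10:114821101-114822300 and chr18:82861451-82862700, had Med26 log2 differences of -0.82, -0.69 and -0.33 and Cdk8 differences of -0.97, 0.10 and -0.39.

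**Figure D1:**
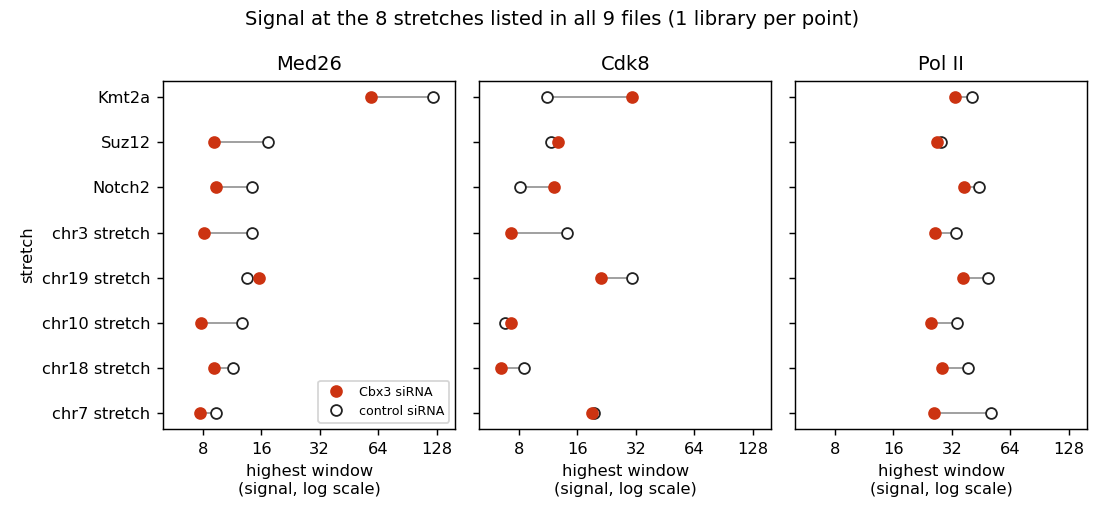
Signal of the highest 50 bp window (log scale, 1 library per point) at the 8 stretches listed in all 9 libraries, for Med26, Cdk8 and Pol II after Cbx3 siRNA (filled) and control siRNA (open). Kmt2a stands apart for Med26, with 59.0 after Cbx3 siRNA and 122.7 after control siRNA, and for the Cdk8 rise, with 30.5 after Cbx3 siRNA and 11.2 after control siRNA.

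Pol II was at nearly every stretch, and Cdk8 was the protein most often missing from all of its libraries (660 stretches, against 204 for Med26 and 84 for Cbx3). Pol II was listed at 1700 of 1702 in both the Cbx3 siRNA and the control siRNA library, and at 1629 in untreated cells. Med26 was listed at 578 (34.0%, 31.7 to 36.2%) after Cbx3 siRNA and at 1441 (84.7%, 82.9 to 86.3%) after control siRNA. Cdk8 was listed at 750 (44.1%) after Cbx3 siRNA and at 604 (35.5%) after control siRNA. Cbx3 was listed at 1547 (90.9%) in set 1 and 860 (50.5%) in set 2, with 789 in both, 758 in set 1 alone, 71 in set 2 alone and 84 in neither. Over all stretches these shares were 2.87% and 2.85% (Pol II after Cbx3 siRNA and control siRNA), 1.34% (untreated Pol II), 0.312% and 1% (Med26), 1.1% and 1% (Cdk8), and 75.7% and 22.8% (Cbx3 sets 1 and 2). The rule used these lists, so nothing is read from the difference.

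Some combinations of libraries recurred. The commonest of 59 combinations missed Med26 after Cbx3 siRNA and Cdk8 in both arms (309 stretches, 18.2%), and the next missed Cbx3 set 2 and Cdk8 in both arms (210 stretches, 12.3%). All 4 proteins were listed in at least 1 library at 754 stretches (44.3%). Med26 was in both arms at 521, in the Cbx3 siRNA arm alone at 57 and in the control arm alone at 920. Cdk8 was in both arms at 312, in the Cbx3 siRNA arm alone at 438 and in the control arm alone at 292. Among the 71 stretches that missed 1 library, the missing one was Med26 after Cbx3 siRNA at 26, Cbx3 set 2 at 17, Cdk8 after control siRNA at 13, Cdk8 after Cbx3 siRNA at 10, Med26 after control siRNA at 3 and Cbx3 set 1 at 2. The low number for Med26 after Cbx3 siRNA goes with its short list, 2721 windows against 15546 after control siRNA; its part in these counts was not tested.

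**Figure D2:**
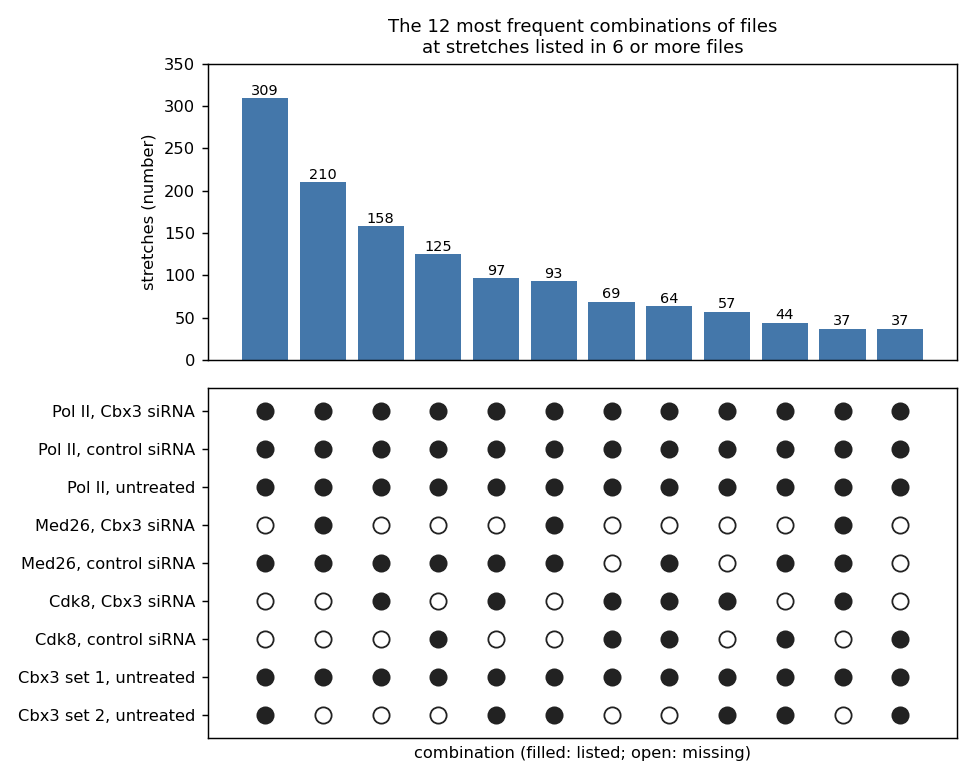
Number of stretches (bars) with each of the 12 most frequent combinations of libraries among the 1702, with listed libraries filled and missing ones open. Pol II is filled throughout, and the 2 commonest combinations, with 309 and 210 stretches, lack Cdk8 in both arms.

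These stretches were longer than others and lay on every autosome but not on the X chromosome. Their median width was 800 bp (quartiles 600 to 1050, range 250 to 19550), against 550 bp (400 to 750) for 8460 stretches of 3 to 5 libraries. Joining more regions widens a stretch, so width is partly set by the rule. Between 8.63% (chromosome 17) and 14.7% (chromosome 8) of the stretches with control siRNA Pol II on each autosome were among the 1702. On the X, 0 of 393 such stretches were, which allows a share of up to 0.763% by the limit of 3 counts, and up to 0.968% by the Wilson interval. The X stretches reached at most 5 libraries, with 13 there. They also had less signal: the median control Pol II window was 12.4 on the X and 18.5 on the autosomes. Med26 after control siRNA was listed at 9.16% of them on the X and 27.5% on the autosomes, Cdk8 after control siRNA at 0.509% on the X and 8.02% on the autosomes, and Cbx3 set 1 at 24.4% on the X and 42.7% on the autosomes. V6.5 is a male line; the part of that or of the lower signal in the count was not tested.

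**Figure D3:**
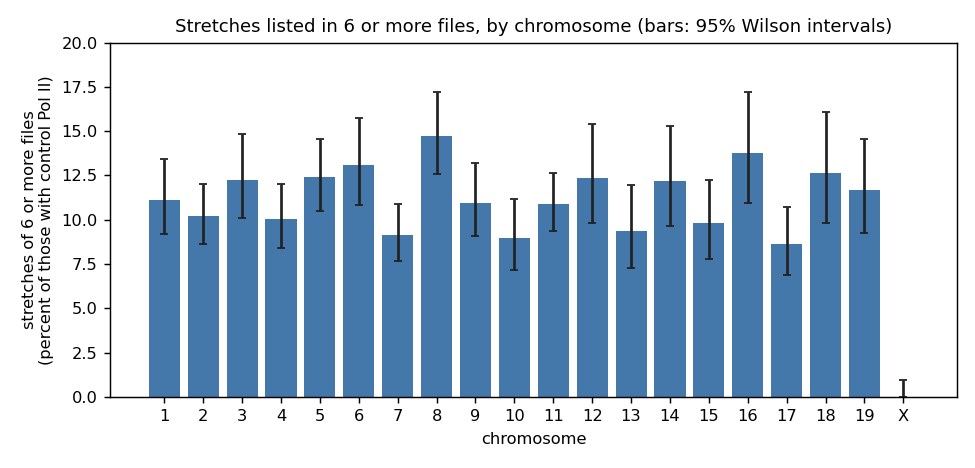
Stretches of 6 or more libraries as a percentage of stretches with control siRNA Pol II, by chromosome (bars with 95% Wilson intervals). The autosomes run from 8.63% to 14.7% and the X is at 0 of 393.

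The stretches were spread out. They fell in 939 bins of 1 Mb, 39 of which held 5 or more, and the median distance between neighbours was 485500 bp. The densest bin was chromosome 11 from 120 to 121 Mb, with 10 of them among 49 stretches with control Pol II, including the Actg1 stretch at chr11:120208801-120210750. Bins of 8 lay on chromosome 7 (52 to 53 Mb), chromosome 8 (72 to 73 Mb) and chromosome 19 (5 to 6 Mb), where Malat1 lies. These bins held 74, 31 and 60 stretches with control Pol II. Over the genome, 10.8% of the stretches with control Pol II were among the 1702. A high count in a bin with many such stretches is therefore not a concentration of the 1702 by itself. Among the 5 longest were chr11:3080551-3100100 with 19550 bp, chr3:96361501-96367000 at Txnip with 5500 bp, chr17:34255401-34260050 at Brd2 with 4650 bp and chr19:5799851-5803950 at Malat1 with 4100 bp. Txnip restrains thioredoxin, Brd2 binds acetylated histones and Malat1 is a long RNA of nuclear speckles. The longest stretch carried the highest Cbx3 signal of the 1702 in both sets, 1149 and 1165, and untreated Pol II and Med26 after Cbx3 siRNA did not list it. The highest Cdk8 signal, 215.5 after Cbx3 siRNA and 204.3 after control siRNA, lay at chr3:5860501-5860950, where Cbx3 was 605.3 and 367.3 and neither Med26 library nor control Pol II was listed. Since the inputs were not used, signal that is not particular to an antibody cannot be told apart at such stretches.

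Ranked within each library's own list, the stretches stood highest in Cbx3 set 1 and lower in the other libraries. The median window of the stretches lay at percentile 98.0 of all set 1 stretches, 83.2 for set 2, 81.0 and 81.6 for Pol II after Cbx3 siRNA and control siRNA, 71.7 and 66.8 for Med26, 79.6 and 77.8 for Cdk8, and 60.4 for untreated Pol II. The lists differ in length, from 1724 stretches (Med26 after Cbx3 siRNA) to 418205 (Cbx3 set 1). A percentile depends on the list, so percentiles do not compare signal strength between libraries. In levels, control Pol II had a median of 33.4 (quartiles 25.9 to 42.6) at the 1702 and 24.7 at stretches of 3 to 5 libraries, while control Med26 had 11.5 and 10.4. Cdk8 differed little between these sets, with 9.87 at the 1702 and 9.67 at stretches of 3 to 5 libraries after Cbx3 siRNA, and 9.67 at the 1702 and 9.87 at stretches of 3 to 5 libraries after control siRNA. Cbx3 set 1 had a median of 60.8 at the 1702 and 57.9 at stretches of 3 to 5 libraries, against 34.3 over all its stretches. A high set 1 signal was therefore not particular to the 1702. Cbx3 set 2 was lower at the 1702 than at stretches of 3 to 5 libraries, 17.9 against 18.9. Across the stretches, control Med26 and control Pol II had a Spearman rho of 0.19 (n = 1441), control Cdk8 and control Pol II -0.19 (n = 602) and the Cbx3 sets 0.26 (n = 789), given as descriptions of signals at shared loci. Pol II of the Cbx3 siRNA and control siRNA libraries had a rho of 0.79 (n = 1698).

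Med26 signal lay closer to the Pol II summit than Cdk8 or Cbx3 signal did, though all 3 lay close to it. Each protein was measured at the stretches that list it, so the sets differ. The distances were not compared on shared stretches. The highest control Med26 window was at a median of 100 bp (quartiles 50 to 250) from the highest control Pol II window, and 55.9% were within 100 bp (n = 1441). Control Cdk8 lay at a median of 150 bp (100 to 300) with 38.0% within 100 bp (n = 602). The Cbx3 sets lay at medians of 150 and 200 bp from untreated Pol II, with 40.1% and 36.3% within 100 bp (n = 1478 and 811). At stretches of 3 to 5 libraries the medians were the same for Med26 (100 bp), Cdk8 (150 bp) and Cbx3 set 1 (150 bp) and 150 bp for Cbx3 set 2. The share within 100 bp was higher there: 62.0% of Med26, 49.6% of Cdk8 and 47.2% and 44.1% of Cbx3 windows were within 100 bp; those stretches are narrower, which limits their distances. The Pol II summit itself moved little between arms, by a median of 50 bp.

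**Figure D4:**
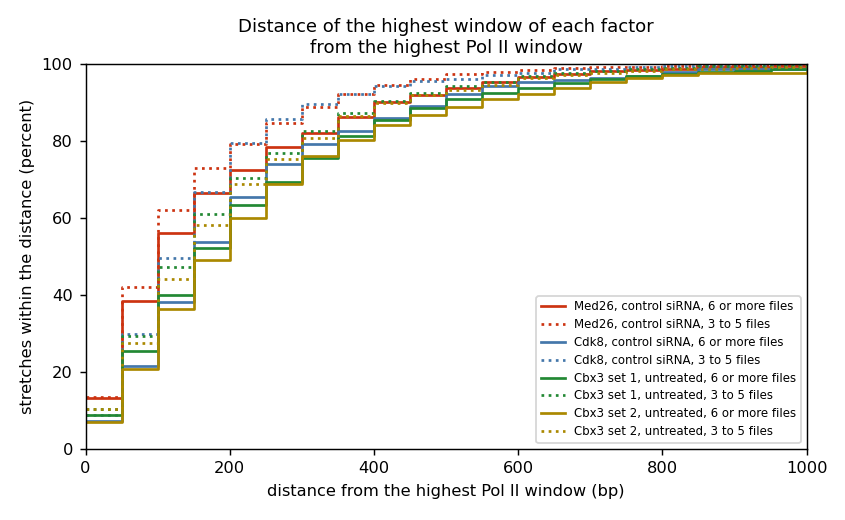
Cumulative percentage of stretches by distance (bp) of the highest window of Med26, Cdk8 and Cbx3 from the highest Pol II window of the matching cells, at the 1702 (solid) and at stretches of 3 to 5 libraries (dotted). Med26 rises first, with 55.9% of the 1702 within 100 bp against 38.0% for Cdk8.

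After Cbx3 siRNA, Med26 and Pol II signal were lower at most of these stretches and Cdk8 was about level, and the differences were near those of the other stretches listed in both arms. The Med26 log2 differences, taken as Cbx3 siRNA minus control siRNA, had a median of -0.65 (quartiles -0.95 to -0.32, n = 521) against -0.64 at 175 other stretches. Of the 521, 478 were below 0 (91.7%), against 88.0% of the other stretches and 90.8% of all stretches listed in both arms. For Pol II the median was -0.33 (-0.56 to -0.10, n = 1698) against -0.29 at 9065 others, and for Cdk8 it was 0.04 (-0.31 to 0.34, n = 312) against 0.07 at 456 others. In levels, the median Med26 window at the stretches was 8.85 after Cbx3 siRNA and 14.2 after control siRNA, Pol II 26.8 after Cbx3 siRNA and 33.5 after control siRNA, and Cdk8 12.2 after Cbx3 siRNA and 11.5 after control siRNA. Med26 was lower by 2-fold or more at 112 stretches (21.5%; 21.4% of all stretches listed in both arms) and higher by 2-fold at 0 (0% of all). Pol II was lower by 2-fold at 45 (2.65%; 3.65% of all) and higher at 0 (0.502% of all), and Cdk8 lower at 9 (2.88%; 2.21% of all) and higher at 8 (2.56%; 2.34% of all). These shares are near those of all stretches. The number of libraries made little difference to the median, which for Med26 was -0.63 at 6, -0.66 at 7, -0.64 at 8 and -0.65 at 9.

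The median also takes in only stretches above the minimum in both arms, which leaves out those at which Med26 dropped from the list: 920 listed in the control arm alone. With the mean of the listed windows in place of the highest, the Med26 median was -0.45, and with their sum it was -1.60, which counts listed length as well as signal. Over the 521 stretches with Med26 in both arms, 55 kb were listed after Cbx3 siRNA and 121.1 kb after control siRNA.

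**Figure D5:**
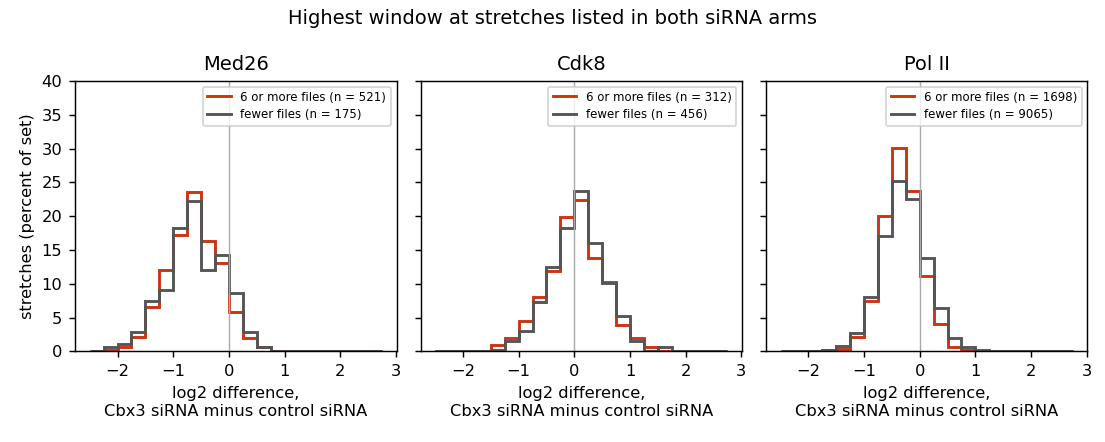
Percentage of stretches by log2 difference of the highest window, Cbx3 siRNA minus control siRNA, at the 1702 (red) and at other stretches listed in both arms (grey). The medians are -0.65 and -0.64 (Med26), 0.04 and 0.07 (Cdk8) and -0.33 and -0.29 (Pol II).

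The largest single differences were ranked among stretches listed in both arms of a pair and have no replicate; a stretch listed in 1 arm alone could differ by more. For Med26, chr9:105397151-105397750 was 8.10 after Cbx3 siRNA and 33.0 after control siRNA (log2 difference -2.03), and the largest rise, at chr6:119429051-119430050, was 14.6 after Cbx3 siRNA and 9.97 after control siRNA (0.55). For Cdk8 the largest fall was at chr15:44258951-44259950, with 16.05 after Cbx3 siRNA and 44.3 after control siRNA (-1.47). After Kmt2a, the next Cdk8 rise in that ranking was at chr4:119960201-119960650, with 27.8 after Cbx3 siRNA and 10.3 after control siRNA (1.43). For Pol II the largest fall was at chr2:32115351-32115800, with 7.17 after Cbx3 siRNA and 22.0 after control siRNA (-1.62), and the largest rise at chr17:17963551-17964350, with 42.5 after Cbx3 siRNA and 23.0 after control siRNA (0.88). At chr17:17963551-17964350 untreated Pol II read 33.3.

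List genes whose mm9 starts were known from memory were looked up within 3 kb of them, and the lists are small and untested. Of all stretches with control Pol II, 10.8% were among the 1702. That share is per stretch, while the lists count genes, some without control Pol II, and a 3 kb search can cover several stretches. The list counts are therefore not compared with it. Housekeeping genes gave 5 of 16: Actg1, Eef1a1, Hsp90ab1, Ubb and Pkm. Immediate early genes, which respond to stimuli within minutes, gave 4 of 18: Jun, Jund, Ier2 and Dusp1. Neural progenitor genes gave 2 of 13, Hes1, a Notch target that represses neuronal differentiation, and Msi1, an RNA-binding protein of neural stem cells. Malat1 was in and Neat1 was not, and neither Pou5f1 nor Nanog, markers of pluripotent cells, was.

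The values show how the marks combined at these genes. Jund had Pol II of 93.2 after Cbx3 siRNA, 116.8 after control siRNA and 103.1 untreated, with Med26 listed after control siRNA (11.1) and not after Cbx3 siRNA. Malat1 had Pol II of 94.97 after Cbx3 siRNA, 124.1 after control siRNA and 93.0 untreated, with Med26 14.4 after control siRNA and Cdk8 10.6 after Cbx3 siRNA. Ubb and Pkm had Med26 in both arms, 7.72 after Cbx3 siRNA and 14.3 after control siRNA at Ubb and 9.64 after Cbx3 siRNA and 16.2 after control siRNA at Pkm. At the Hes1 stretch Med26 was 8.74 after Cbx3 siRNA and 8.66 after control siRNA. Pol II there was 23.1 after Cbx3 siRNA and 20.4 after control siRNA. The highest control Pol II within 3 kb of the Hes1 start, 33.2, lay outside this stretch. At Msi1 Pol II was 16.9 after Cbx3 siRNA and 33.4 after control siRNA. A stretch within 3 kb of the Cbx3 start was also among these stretches. At chr6:51418951-51421200 Pol II was 46.5 after Cbx3 siRNA and 72.2 after control siRNA (log2 difference -0.64), and Cbx3 protein was 61.4 in set 1. No gene annotation was used to place neighbouring genes here, so this Pol II signal cannot be assigned to Cbx3 alone. The siRNA acts on the RNA, so the Pol II difference does not check the knockdown, and the protein level was not analysed here.

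As a check of the cell type, 10 of 13 neural progenitor genes had control Pol II within 3 kb, at 8.40 to 34.1, and Pou5f1 and Nanog had it at 11.0 and 15.3. Pax6, Notch1 and Fabp7 did not have it within that distance. Since Pou5f1 and Nanog had it within the range of the neural progenitor genes, this check does not tell the cell types apart.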

How the data were processed

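The deposited files list 50 bp windows with a signal value per window; per the submitters' processing notes the authors used Bowtie and mm9. How windows were called is not given in the sources used here. Every value was a multiple of a fixed step (tolerance 0.05 step), and the step was equal within each siRNA pair, so those signal values were compared as deposited. An equal step shows a shared unit, not equal depth, which was not tested; other libraries have other steps. The 7 inputs were not used. Windows up to 200 bp apart were merged, regions sharing 1 bp were joined and a stretch's value was its highest window. Regions named follow a rule: those in all 9 libraries, the 10 highest mean percentile ranks, 5 largest changes per direction and pair, the highest per library, the 5 longest and the densest bins. 1 of the 5 longest is not reported here. The members and gene lists were chosen with earlier results of these data known. No test of change was possible. The share of stretches at annotated gene starts was not run, as the gene table used is GRCm38, and no printed coordinate was converted. Gene names come from general knowledge of mm9 positions; before the list was drawn up, offsets between mm9 and GRCm38 had been estimated at some stretches and nearby genes read off, and recalled positions were later set beside GRCm38 spacing. Names that came from that estimate alone were removed, and Hes5, Mycn, Nfia, Dnmt1, Ezh2 and Ccnd2 were left out as unsure. The names kept are not independent of that look. Histone, ribosomal protein and small RNA host genes, and other cell type markers, were not looked up. Software was Python 3.11.15 (matplotlib 3.10.9, scipy 1.17.1, pandas 2.3.3, numpy 2.4.6); the steps were tested on simulated data.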

Additional observations from a re-analysis of the deposited data

Results flagged for a closer look

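Between the same arms, Cbx3 siRNA minus control siRNA, the median log2 difference was -0.65 for Med26 (n = 521) and 0.041 for Cdk8 (n = 312). Cdk8 was thus about level, with 147 of its 312 stretches below 0 (47.1%, against 44.5% of all stretches listed in both arms). These medians rest on largely different stretches. Med26 and Cdk8 differed in opposite directions at 5 of the 13 named stretches listed for both proteins in both arms. These differences were not tested, and each value rests on 1 library per arm. These named stretches were picked partly for extreme values. Over all 38 stretches listed for both proteins in both arms, Med26 was lower and Cdk8 higher at 20. Of these 38, Med26 was lower at 36 and Cdk8 lower at 18, so the 20 do not by themselves show an opposing response. At Kmt2a the values were -1.06 and 1.44 for Med26 and Cdk8. At Notch2 they were -0.61 and 0.58, at Suz12 -0.93 and 0.11, and at chr10:114821101-114822300 -0.69 and 0.10. At chr19:55390251-55391250 the directions were the other way round, 0.22 for Med26 and -0.52 for Cdk8.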

How the results depend on the processing

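Of 125 values recomputed under other settings, 74 stayed within 1.5 times of a count or within the counting interval of a median or share, 51 moved and 0 reversed. Only the Med26 and Pol II medians could be called reversed, as counts, shares and the Cdk8 median had no called direction. With 100 bp of overlap needed to join, 738 stretches remained, 2 in all 9 libraries; missing were 71 for Cbx3 set 1, 392 for set 2, 32 for untreated Pol II, 503 and 114 for Med26 (Cbx3 siRNA and control siRNA), 433 and 488 for Cdk8, and 0 for Pol II after Cbx3 siRNA. With windows at or above the median signal of their library there were 620, 1 in all 9; missing were 49 and 315 for the Cbx3 sets, 381 and 104 for Med26 and 384 and 421 for Cdk8. Requiring 7 or 5 libraries gave 510 and 4050. Leaving out each Cbx3 set in turn gave 626 (without set 1) to 1183 stretches and 9 to 25 in all the remaining libraries; missing were 101 for set 1, 246 for set 2, 18 to 33 for untreated Pol II, 313 to 659 and 41 to 125 for Med26 (Cbx3 siRNA and control siRNA), 227 to 540 and 304 to 656 for Cdk8, and 0 to 0 for both siRNA Pol II libraries. Fewer libraries were then available, and the rule still asked for 6. The mean of listed windows gave medians of -0.45 for Med26 and -0.25 for Pol II, and shares 2-fold lower of 10.8% for Med26 and 0.942% for Pol II, with 1.28% higher for Cdk8. Their sum gave -1.60 and -0.43, with 69.7%, 15.7% and 10.7% lower for Med26, Cdk8 and Pol II and 2.50%, 20.5% and 1.06% higher; a sum moves with how many windows are listed. The cause of the other moves was not tested. Joining regions up to 200 bp apart gave 2070 stretches, 9 in all 9; this was added after seeing the data, when several joining distances were looked at, and so was leaving out the 5 longest, which gave -0.65, 0.04 and -0.33. The planned share at gene starts was not run, as no mm9 annotation was used here. A block has nothing to pair. No paired analysis was possible because each arm holds 1 library per antibody.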
